A study of Mus musculus with 7 samples.

Results

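The transcripts described here are 36 genes known from white and brown fat cells, followed in the kidneys of 7 male Slc7a9-/- mice aged 6 months. They were picked by symbol out of the 45706 genes of the deposited tables, with values of the comparison below already known, and 31 of the 36 had enough counts to be tested. Of the 7 mice, 4 had received L-ergothioneine, a dietary antioxidant that contains sulfur, at 16 mg/kg/day in their drinking water, and 3 were untreated. Every mouse in both groups lacked Slc7a9, the light-chain subunit that the kidney needs to reabsorb cystine, so each animal carried this model of cystinuria and no wild-type kidney stands beside them. Each library was made from total RNA of frozen kidney tissue of 1 mouse. The single comparison asks how fat-cell transcripts in such kidneys differ with ergothioneine. Which piece of the kidney was taken, and whether fat around it was removed, is not given in the sources used here.

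White fat cells store triglyceride in a large lipid droplet, coat it with perilipins and CIDE proteins, and secrete hormones such as adiponectin and leptin. Brown fat cells hold many small droplets and many mitochondria, and burn fatty acids for heat through uncoupling protein 1, after noradrenaline has acted on the beta-3 adrenergic receptor. The kidney is embedded in fat, and fat tissue also lies in its sinus around the vessels and the pelvis. Several genes of fat metabolism, among them Cd36, Lpl, Gpd1 and the enzymes of fatty acid synthesis, are also active in kidney cells, whereas Ucp1, Plin1 and Adipoq are regarded as markers of fat cells.

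Libraries held between 14843899 and 19791575 expected counts. Markers of kidney dominated every library: the 8 proximal tubule markers summed to 27090 to 30780 CPM (counts scaled to a common library size) with ergothioneine and to 27780 to 30070 CPM untreated. Protein-coding genes took 58.2%, 48.2%, 52.5% and 47.0% of all TPM (a scale that corrects for transcript length) in the 4 ergothioneine libraries, against 80.5%, 76.3% and 47.5% in the 3 untreated ones. Untreated libraries 1 and 2 thus stood apart in their RNA composition, and some counts of calls are also given without them. Only part of the calls that ended without both libraries are named. A call for which this fit is not mentioned may also have ended. In bulk tissue, fewer fat cells and less RNA per fat cell cannot be told apart.

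Of the 31 tested genes, 16 were lower and 1 was higher with ergothioneine at an adjusted p under 0.05 (edgeR, Benjamini-Hochberg over 15399 genes). The share called lower over all tested genes was 3.57%, and the share called higher was 3.58%. In 18 of the 31 tested genes, and in 19 of all 36, every ergothioneine kidney lay below every untreated kidney, as did 9.11% of all tested genes. The median log2 fold change (ergothioneine over untreated) was -0.67 over the 31 genes and -0.003 over all tested genes. Because the genes were chosen with this contrast in view, these counts describe the list, and no p of a listed gene is given. The counts also carry a split by role: 6 of 9 tested thermogenesis genes, 3 of 6 genes of the lipid droplet and 2 of 2 tested secreted factors were called lower. For fatty acid uptake it was 1 of 3, for glucose uptake and fat synthesis 2 of 8 with 1 higher, and for regulators and others 2 of 3 tested.

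**Figure D1:**
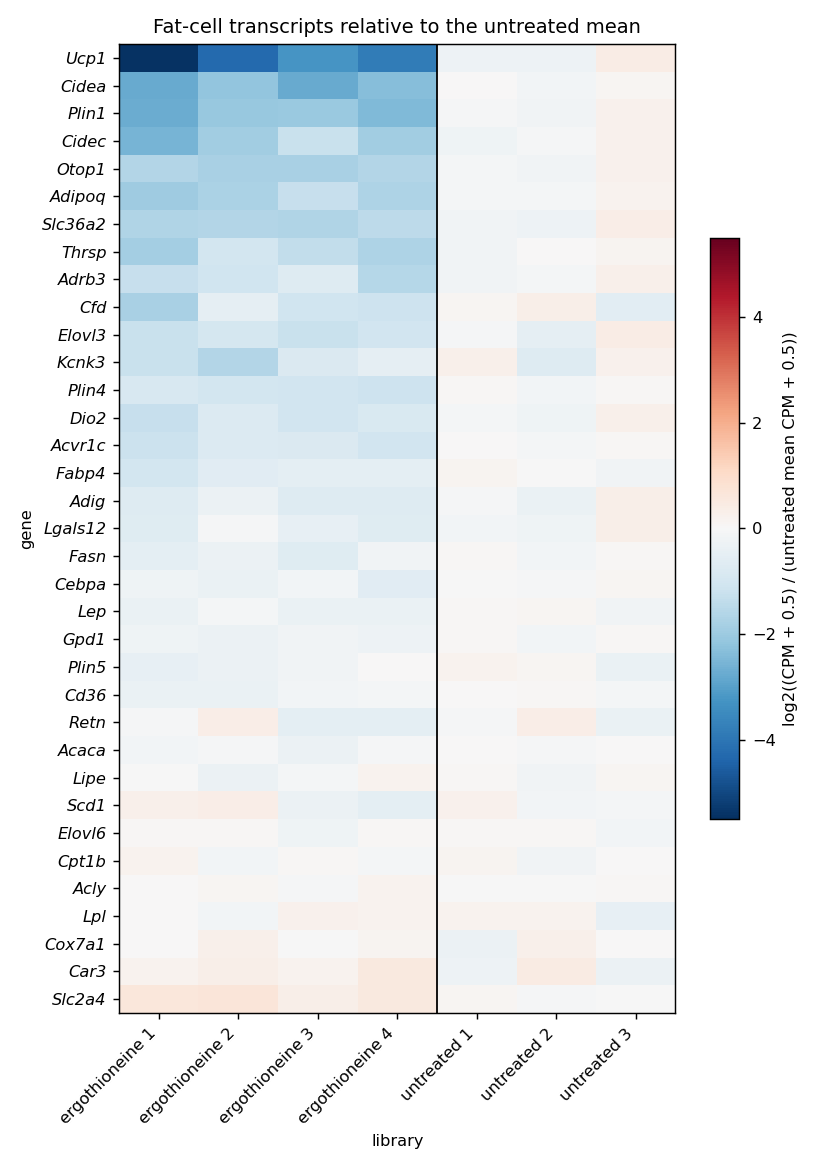
Colour shows log2 of CPM over the untreated mean, with 0.5 CPM added to both, for 35 of the 36 genes in each library (Zic1, at 0 throughout, is left out), ergothioneine libraries left and untreated libraries right, genes ordered by their ergothioneine mean. Ucp1, Cidea, Plin1 and Cidec head the plot in blue in the 4 ergothioneine libraries, and genes from Cd36 down to Car3 stay near white in both groups.

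The start regions of 23 of the 36 genes were found in the RefSeq promoter table (GRCm38.p6), in 27 windows of 300 bases that run from 250 before to 50 after the start of transcription. The windows of Ucp1, Plin1, Cidec and Adipoq are shown as examples of fat-cell genes called lower, and that of Fasn as a fat synthesis gene that was not called. The choice does not follow the ranking: Otop1, with the lowest log2 fold change (-5.13), has a window that is not printed. Each reads 5′ to 3′ along the gene, in lower case, with capitals for matches on either strand to 5 motifs. The CCAAT box was searched as those 5 letters and the TATA box as TATAAA. Factors of the C/EBP family, which act in fat cells, were represented by TTGCNNAA. The GC box of many widely active promoters was searched as GGGCGG, and the direct repeat of PPAR factors as a pair of AGGNCA with 1 free base between them. The Ucp1 window is chr8:83290098-83290397 on the plus strand, Plin1 chr7:79732727-79733026 on the minus strand, Cidec chr6:113434715-113435014 on the minus strand (the 1 of its 2 windows with a match), Adipoq chr16:23146286-23146585 on the plus strand and Fasn chr11:120824498-120824797 on the minus strand.
Ucp1: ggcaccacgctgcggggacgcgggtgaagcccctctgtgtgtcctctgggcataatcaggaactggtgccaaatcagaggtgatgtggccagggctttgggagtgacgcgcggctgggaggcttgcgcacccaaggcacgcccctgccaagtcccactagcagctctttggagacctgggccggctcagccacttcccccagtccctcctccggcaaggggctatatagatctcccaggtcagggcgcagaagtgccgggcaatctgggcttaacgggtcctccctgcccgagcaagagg
Plin1: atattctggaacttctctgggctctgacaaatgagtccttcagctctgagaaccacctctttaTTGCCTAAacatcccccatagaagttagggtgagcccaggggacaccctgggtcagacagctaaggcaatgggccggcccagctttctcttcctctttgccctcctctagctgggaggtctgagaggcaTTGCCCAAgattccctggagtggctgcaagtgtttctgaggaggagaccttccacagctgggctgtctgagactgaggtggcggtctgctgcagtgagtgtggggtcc
Cidec: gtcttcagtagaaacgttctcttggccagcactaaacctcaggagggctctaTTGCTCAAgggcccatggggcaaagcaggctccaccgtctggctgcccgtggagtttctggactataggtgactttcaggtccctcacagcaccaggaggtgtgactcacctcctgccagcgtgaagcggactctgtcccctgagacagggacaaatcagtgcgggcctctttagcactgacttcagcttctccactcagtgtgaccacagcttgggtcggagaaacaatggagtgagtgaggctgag
Adipoq: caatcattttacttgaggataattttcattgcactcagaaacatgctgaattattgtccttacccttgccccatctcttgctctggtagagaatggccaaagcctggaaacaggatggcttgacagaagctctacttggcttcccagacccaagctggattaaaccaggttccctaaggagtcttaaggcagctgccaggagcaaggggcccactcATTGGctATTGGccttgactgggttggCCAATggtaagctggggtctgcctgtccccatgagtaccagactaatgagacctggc
Fasn: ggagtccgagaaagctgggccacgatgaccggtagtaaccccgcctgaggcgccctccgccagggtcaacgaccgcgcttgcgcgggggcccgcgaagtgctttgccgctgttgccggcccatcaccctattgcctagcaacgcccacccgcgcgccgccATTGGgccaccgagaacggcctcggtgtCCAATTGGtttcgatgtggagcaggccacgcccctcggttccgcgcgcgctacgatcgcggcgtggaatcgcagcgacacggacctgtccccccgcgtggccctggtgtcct

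The Plin1 window held 2 C/EBP matches, 187 and 58 bases before the start, and the Cidec window held 1, at 198 bases before it. Matches to TTGCNNAA occurred in 4 of the 27 windows of listed genes (Cidec, Dio2, Lep and Plin1), against 10.8% of all 32851 windows in the table. The Adipoq window held 3 CCAAT matches within 34 bases of the start. Fasn also held 3, of which 2 lie on opposite strands next to each other and share letters. CCAAT was found in 10 of the 27 windows and in 37.4% of all windows, TATAAA in 2 (Cebpa and Dio2) and 13.6%, GGGCGG in 9 and 35.7%, and the PPAR repeat in 0 and 0.381%. The Ucp1 window held no match to any of the 5 motifs. CG pairs numbered 15 in the Ucp1 window, 2 in Plin1, 7 in Cidec, 0 in Adipoq and 18 in that of Otop1, beside 39 in Fasn, which was not called. Other windows did not follow this split. Of genes called lower, Acvr1c had 2 and 39 in its windows and Cebpa 29. Of genes not called, Acaca had 1 and Cd36 had 3. Median GC content was 57.7% in the windows of listed genes and 52.7% in all windows. These are matches of letters only.

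Among the thermogenesis genes called lower, Ucp1 had the most reads. Ucp1 (chr8:83290352-83298452, GRCm38) encodes the protein that lets protons back across the inner mitochondrial membrane so that brown fat makes heat. It had 0, 0.607, 1.75 and 0.982 CPM in the 4 ergothioneine kidneys, against 17.3, 17.3 and 28.1 CPM in the 3 untreated kidneys. The highest ergothioneine kidney thus lay far below the lowest untreated one. Means were 0.835 ± 0.733 CPM with ergothioneine and 20.9 ± 6.22 CPM untreated (SD, n = 4 and 3), so that the ergothioneine mean was 4.00% of the untreated mean, and the fitted log2 fold change was -4.65 ± 0.58 (SE). In raw reads this was 0, 12, 30 and 18 counts with ergothioneine against 306, 258 and 438 counts untreated. On the length-corrected TPM scale, rescaled over protein-coding genes, Ucp1 averaged 1.05 with ergothioneine and 26.4 untreated, a level below those of Cd36 (362) and Gpd1 (301.5) in the same kidneys.

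Cidea, a protein of the lipid droplet that is abundant in brown fat, was close to the counting floor with ergothioneine. It had 0, 5, 0 and 3 counts in the ergothioneine libraries, against 52, 38 and 49 counts in the untreated ones. Levels averaged 0.104 ± 0.126 CPM with ergothioneine and 2.88 ± 0.304 CPM untreated, with a log2 fold change of -4.63 ± 0.49. Otop1, a proton channel that is expressed in brown fat, had 1, 0, 0 and 1 counts with ergothioneine, against 19, 15 and 24 counts untreated. With so few reads its ratio, 2.28% of the untreated level per library size, has a counting interval of 0.27% to 8.62% (exact, 95%), which covers counting error only. Slc36a2, an amino acid transporter of the brown fat cell surface, had 0.170, 0.202, 0.175 and 0.273 CPM with ergothioneine, against 1.36, 1.27 and 2.24 CPM untreated. Neither Otop1 nor Slc36a2 had an ergothioneine kidney that reached an untreated one.

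The receptor and the hormone-activating enzyme of the thermogenic pathway showed smaller differences. Adrb3, the beta-3 adrenergic receptor through which noradrenaline acts on fat cells, had 0.114, 0.202, 0.409 and 0 CPM in ergothioneine kidneys, against 0.793, 0.871 and 1.28 CPM in untreated kidneys. Dio2, the deiodinase that makes active thyroid hormone, had 0.227, 0.557, 0.351 and 0.491 CPM with ergothioneine, against 1.13, 1.01 and 1.67 CPM untreated. Their log2 fold changes were -2.41 ± 0.56 for Adrb3 and -1.61 ± 0.38 for Dio2, and both were called lower without overlap between the groups. Without untreated library 3 neither gene passed, and Dio2 also missed the threshold without ergothioneine library 1. Kcnk3, a potassium channel of brown fat cells that other tissues also express, had 0.795, 0.506, 1.23 and 1.64 CPM with ergothioneine, against 3.17, 1.34 and 3.08 CPM untreated. The groups overlapped and Kcnk3 was not called by edgeR, at a log2 fold change of -1.29 ± 0.38, although DESeq2 called it lower.

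Cox7a1 and Cpt1b, which muscle also uses, showed no such split. Cox7a1, a subunit of cytochrome c oxidase found in heart, muscle and brown fat, had 3.07, 3.69, 2.98 and 3.38 CPM with ergothioneine, against 2.27, 3.69 and 3.01 CPM untreated. Cpt1b, the muscle form of the enzyme that carries fatty acids into mitochondria, had 39.1, 30.2, 35.3 and 31.6 CPM with ergothioneine, against 37.3, 29.6 and 34.1 CPM untreated. The log2 fold changes were 0.15 ± 0.20 for Cox7a1 and 0.01 ± 0.10 for Cpt1b, and in both the groups overlapped. Counts of Cpt1b were not whole in any of the 7 libraries, so part of its reads was shared with another gene and its level is uncertain. Elovl3, a fatty acid elongase induced in brown fat, was too low to be tested, with 0, 2, 0 and 1 counts with ergothioneine against 11, 5 and 16 counts untreated. Its ratio per library size was 6.20% (exact interval 1.22% to 19.82%). Zic1, a transcription factor that marks the classical brown fat depot between the shoulder blades, had 0 counts in every library of both groups, which allows up to 0.152 to 0.201 CPM at a floor of 3 counts per library.

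**Figure D2:**
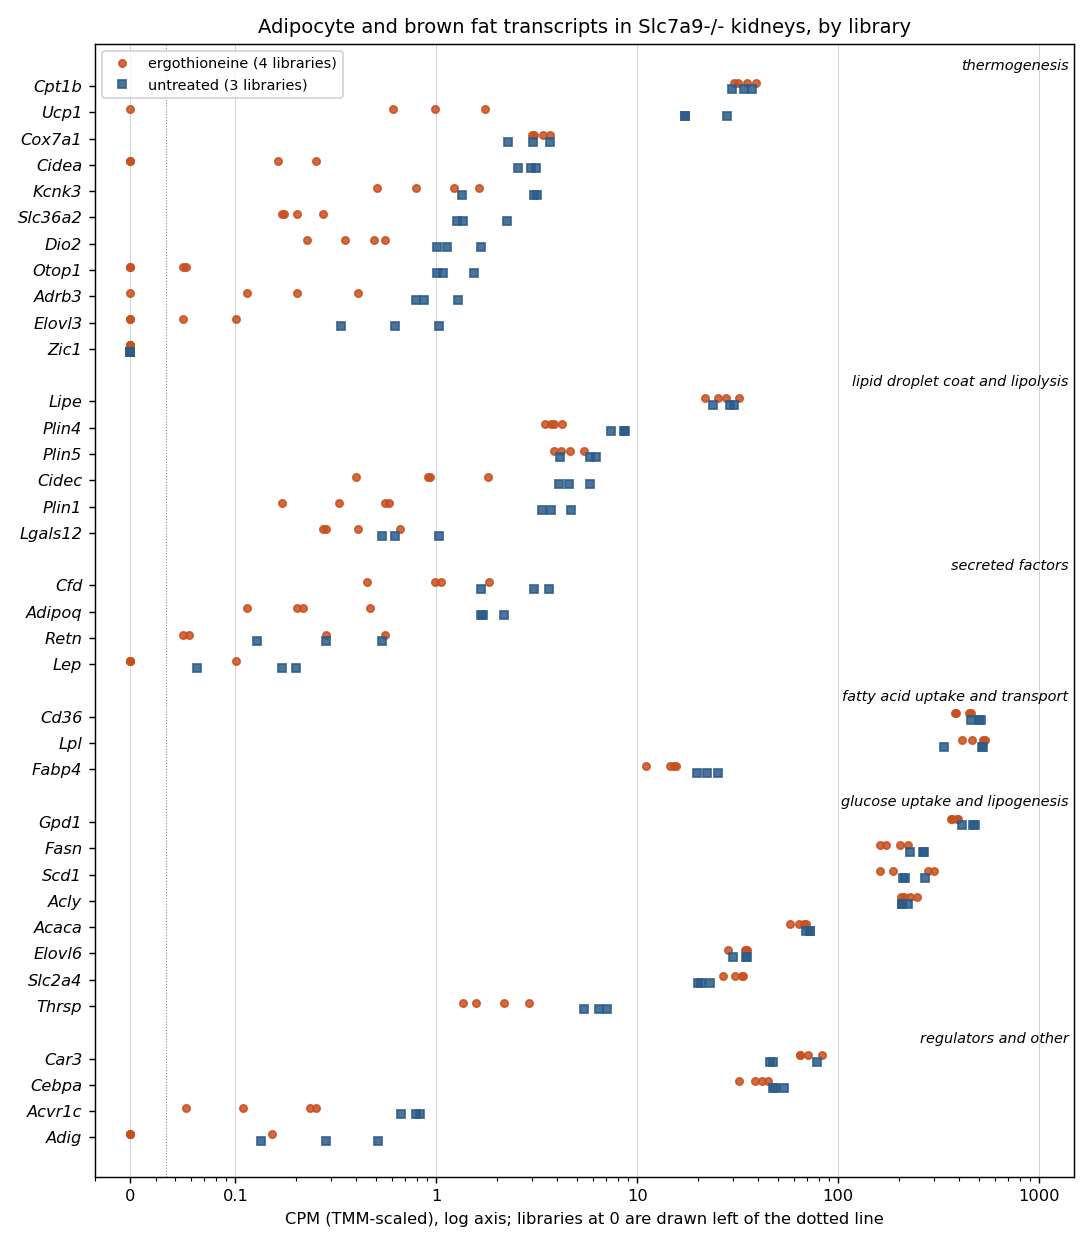
CPM of all 36 genes by role on a log axis (libraries at 0 stand left of the dotted line), ergothioneine kidneys above as circles (n = 4) and untreated kidneys below as squares (n = 3), each point 1 library. The ergothioneine points of Ucp1 lie at 0 to 1.75 CPM, left of the untreated ones at 17.3 to 28.1 CPM, whereas those of Cpt1b, Lipe, Lpl and Acly overlap.

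Of the 6 genes of the lipid droplet, Plin1, Cidec and Plin4 were called lower, and Plin5, Lipe and Lgals12 were not called. Plin1 (chr7:79720218-79732903), the perilipin that guards the droplet of fat cells and releases it to lipases on a hormonal signal, had 0.170, 0.557, 0.584 and 0.327 CPM in ergothioneine kidneys, against 3.74, 3.35 and 4.68 CPM in untreated kidneys. Its means were 0.410 ± 0.197 CPM with ergothioneine and 3.92 ± 0.684 CPM untreated (SD, n = 4 and 3), and its log2 fold change was -3.23 ± 0.32. Cidec (chr6:113424634-113435760), which fuses small droplets into a large one, had 0.397, 0.911, 1.81 and 0.927 CPM with ergothioneine, against 4.08, 4.56 and 5.84 CPM untreated. The ergothioneine mean was 10.4% of the untreated mean for Plin1 and 21.0% for Cidec. No ergothioneine kidney reached an untreated one in either gene.

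Plin4, a perilipin of nascent droplets in fat cells and muscle, had 4.20, 3.85, 3.74 and 3.49 CPM with ergothioneine, against 8.73, 7.44 and 8.59 CPM untreated. It did not overlap between groups and its log2 fold change was -1.11 ± 0.14, with the ergothioneine mean at 46.3% of the untreated one. Hdgfl2 overlaps Plin4 on the opposite strand and averaged 11.4 CPM with ergothioneine (10.2 to 12.8) and 11.6 CPM untreated (10.4 to 12.9). The strand setting of the authors' counting is not given in the sources used here, so reads of the pair may not be fully told apart. Plin5, the perilipin of oxidative tissues, had 3.86, 4.15, 4.62 and 5.45 CPM with ergothioneine, against 6.23, 5.83 and 4.10 CPM untreated, and untreated library 3 lay within the ergothioneine range. Lipe, the hormone-sensitive lipase, had 27.5, 21.8, 25.3 and 32.1 CPM with ergothioneine, against 28.9, 23.9 and 30.2 CPM untreated. Lgals12, a galectin of fat cell droplets, had 0.284, 0.658, 0.409 and 0.273 CPM with ergothioneine, against 0.623, 0.536 and 1.03 CPM untreated. These 3 genes overlapped between groups and were not called, at log2 fold changes of -0.26 ± 0.18, -0.06 ± 0.12 and -0.82 ± 0.44.

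Of the 4 secreted factors, Adipoq and Cfd could be tested. Adipoq (chr16:23146536-23158028), which encodes the fat hormone adiponectin, had 0.114, 0.202, 0.468 and 0.218 CPM in ergothioneine kidneys, against 1.70, 1.68 and 2.18 CPM in untreated kidneys. The groups lay far apart, with means of 0.250 ± 0.152 CPM with ergothioneine and 1.85 ± 0.285 CPM untreated (SD, n = 4 and 3) and a log2 fold change of -2.87 ± 0.39. Cfd, the complement factor adipsin, had 0.454, 1.82, 1.05 and 0.982 CPM with ergothioneine, against 3.06, 3.62 and 1.67 CPM untreated. Here ergothioneine library 2 lay above untreated library 3, and the call, at a log2 fold change of -1.35 ± 0.37, was lost without any 1 of ergothioneine libraries 1, 3 and 4 and untreated libraries 1 and 2. The hormone genes Lep (leptin) and Retn (resistin) were nearly silent in both groups. Lep had 0, 2, 0 and 0 counts with ergothioneine against 3, 3 and 1 counts untreated, and Retn had 5, 11, 1 and 1 counts with ergothioneine against 5, 8 and 2 counts untreated. Retn overlapped fully, and the Lep ratio of 18.9% had an exact interval of 1.92% to 99.2%, so a difference in Lep beyond counting error was barely detectable at this depth.

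Of the genes of fatty acid uptake, Lpl and Cd36 are also expressed by the kidney's own cells. Lpl, the lipase that frees fatty acids from circulating lipoproteins, had 462, 414, 536.5 and 528 CPM with ergothioneine, against 523, 519 and 335 CPM untreated. Untreated library 3 was the lowest of all 7, and the log2 fold change was 0.08 ± 0.19. Cd36, the fatty acid receptor of the cell surface, had 382, 386, 448 and 456 CPM with ergothioneine, against 501, 516 and 459 CPM untreated. It was not called by edgeR at -0.24 ± 0.07, although the groups did not overlap and DESeq2 called it lower. Fabp4, a fatty acid carrier of fat cells, endothelium and macrophages, had 11.1, 14.6, 15.5 and 15.3 CPM with ergothioneine, against 25.3, 22.2 and 19.9 CPM untreated. It was called lower at -0.67 ± 0.12 with no overlap.

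**Figure D3:**
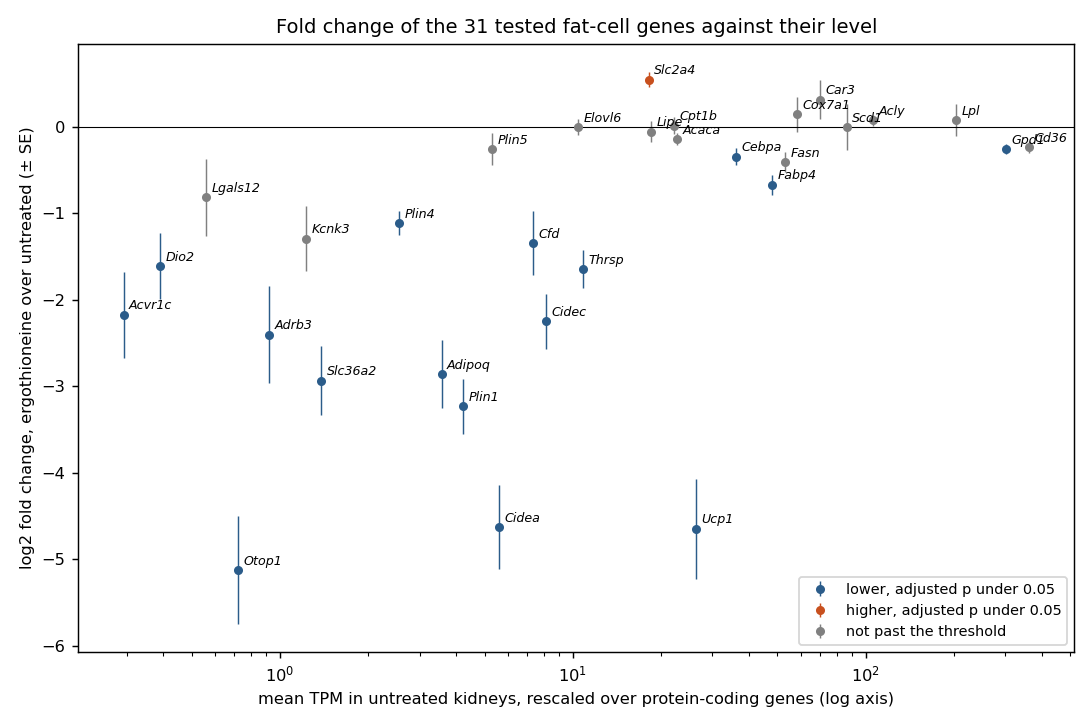
Log2 fold change (ergothioneine over untreated, bars for SE) of the 31 tested genes against their mean TPM in untreated kidneys, rescaled over protein-coding genes, on a log axis. Every gene with a log2 fold change under -1 lay at or below the level of Ucp1 (26.4 TPM), and the most abundant, Cd36 (362 TPM), stood at -0.24.

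Slc2a4 was the only 1 of the 31 tested genes that was called higher with ergothioneine. It encodes GLUT4, the insulin-responsive glucose transporter of fat and muscle, and had 33.2, 33.6, 26.6 and 30.7 CPM in ergothioneine kidneys, against 22.9, 20.1 and 20.7 CPM in untreated kidneys. The lowest ergothioneine kidney lay above the highest untreated one, with means of 31.04 ± 3.20 CPM with ergothioneine and 21.2 ± 1.47 CPM untreated (SD, n = 4 and 3) and a log2 fold change of 0.55 ± 0.09. On deposited TPM, where the median of all tested genes was shifted by -0.31, Slc2a4 stood at 0.16 on the log2(TPM + 1) scale and was not called, and after rescaling over protein-coding genes at 0.52 and was called.

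The enzymes of fatty acid synthesis were abundant, and of those listed here Fasn differed most. Fasn, fatty acid synthase, had 173, 203, 161.5 and 224 CPM with ergothioneine, against 263, 228 and 268 CPM untreated, with all ergothioneine kidneys below the untreated ones. Acaca, acetyl-CoA carboxylase, had 64.0, 68.8, 57.7 and 67.9 CPM with ergothioneine, against 72.3, 69.1 and 72.6 CPM untreated, again without overlap. Neither was called by edgeR with all libraries, at log2 fold changes of -0.41 ± 0.11 for Fasn and -0.14 ± 0.07 for Acaca. Fasn was called lower in 6 alternative settings and not in the others. These were DESeq2, deposited TPM with either pseudocount, ergothioneine library 3 or 4 left out, and the replicate number as a block. The desaturase gene Scd1 had 279, 298, 187 and 162 CPM with ergothioneine, against 270, 210.1 and 216 CPM untreated. Acly, ATP citrate lyase, had 214, 229, 206 and 246 CPM with ergothioneine, against 208, 209 and 222 CPM untreated. Elovl6, which lengthens palmitate, had 34.5, 34.9, 28.2 and 35.1 CPM with ergothioneine, against 34.8, 35.2 and 29.9 CPM untreated. Scd1, Acly and Elovl6 overlapped between groups, at log2 fold changes of -0.004 ± 0.27, 0.07 ± 0.06 and -0.003 ± 0.09.

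Thrsp, a regulator of fat synthesis that is abundant in fat and liver, differed more than the enzymes. It had 1.36, 2.88, 2.16 and 1.58 CPM with ergothioneine, against 5.44, 6.43 and 7.05 CPM untreated, so the groups were well separated at a log2 fold change of -1.65 ± 0.22. Gpd1, which supplies the glycerol backbone of triglyceride, had 389, 363, 394 and 370 CPM with ergothioneine, against 467, 413 and 478 CPM untreated. It was called lower without overlap at -0.26 ± 0.06, and the call was lost without any 1 of ergothioneine libraries 1 and 2 and untreated libraries 1 and 3.

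Among the regulators and other genes, Cebpa and Acvr1c were called lower. Cebpa, a transcription factor of fat cell differentiation that liver and kidney also express, had 41.7, 38.5, 44.8 and 32.1 CPM with ergothioneine, against 48.4, 47.2 and 53.9 CPM untreated. The groups did not overlap, but its log2 fold change of -0.34 ± 0.10 passed with only ergothioneine library 3 left out, not with any other. Acvr1c, the activin receptor ALK7 of fat cells, had 0.0568, 0.253, 0.234 and 0.109 CPM with ergothioneine, against 0.793, 0.670 and 0.834 CPM untreated. It stood at -2.17 ± 0.50 with no overlap, and its call was lost without untreated library 1. Car3, a carbonic anhydrase abundant in fat and muscle, had 64.5, 70.7, 64.9 and 83.1 CPM with ergothioneine, against 47.4, 78.1 and 45.8 CPM untreated, and was not called. Adig, a small protein of fat cell differentiation, was too low to be tested, with 0, 3, 0 and 0 counts with ergothioneine against 5, 2 and 8 counts untreated.

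Many of the genes ordered the libraries alike, but how often all tested genes did so was not counted. The order may thus not be particular to these genes. Among the 16 genes called lower, untreated library 3 was the highest untreated library in 13 and untreated library 2 the lowest in 11. Ergothioneine library 1 was the lowest ergothioneine library in 11 of the 16, and ergothioneine library 3 the highest in 8. Untreated library 3 had a protein-coding share of 47.5%, within the 47.0% to 58.2% of the ergothioneine libraries and unlike the 2 other untreated ones. Whether this share bears on the levels of these genes was not tested. With untreated library 3 as the only untreated library, 10 genes were called lower, 9 of them among the 16 and the other Elovl3. The 7 that were then not called kept negative log2 fold changes, at -5.07 for Ucp1, -2.79 for Adrb3, -2.29 for Acvr1c and -2.0 for Dio2, and at -0.61 for Cfd, -0.49 for Fabp4 and -0.455 for Cebpa. With each library left out in turn, 12 to 17 genes were called lower, and 10 of the 16 kept the call with every single library left out: Ucp1, Cidea, Slc36a2, Otop1, Cidec, Plin1, Plin4, Adipoq, Fabp4 and Thrsp. All 16 kept a log2 fold change under 0 in each of these fits.

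Library index numbers in the labels fall into a high range (ergothioneine library 1, untreated libraries 1 and 2) and a low range (ergothioneine libraries 2 to 4, untreated library 3), and the labels do not say that a range was a batch. Of the 31 tested genes, 24 had every ergothioneine library below every untreated one within the high range, as did 35.3% of all tested genes, and 20 within the low range, as did 31.2%. The genes were chosen on these same libraries, so these counts are a description. With the range as a block in the fit 14 of the 16 were called lower, and Cfd and Cebpa were not.

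Ucp1 and Cidea, which were among the genes with the lowest log2 fold changes, had lower ratios to other fat-cell transcripts with ergothioneine. All of these genes were chosen with this contrast in view, so the ratios describe the same fold changes again and are no further result. Within a library, the TPM ratio of Ucp1 to Adipoq was 0, 2.24, 2.82 and 3.28 in ergothioneine kidneys, against 5.19, 7.62 and 9.56 in untreated kidneys. The TPM ratio of Ucp1 to Plin1 was 0, 1.27, 3.65 and 3.47 with ergothioneine, against 5.49, 5.98 and 6.96 untreated. Cidea stood to Cidec at 0, 0.173, 0 and 0.283 in TPM with ergothioneine, against 0.764, 0.602 and 0.707 untreated. All 3 ratios were lower in every ergothioneine kidney than in every untreated one, on counts as low as 2 for Adipoq in ergothioneine library 1. The ratio of Ucp1 to Otop1 was 34.1, 35.5 and 38.9 in the untreated kidneys. Most of the other tested thermogenesis genes did not stand further apart than general adipocyte genes. Against log2 fold changes of -2.87 for Adipoq and -3.23 for Plin1, those of Slc36a2 (-2.94), Adrb3 (-2.41), Dio2 (-1.61) and Kcnk3 (-1.29, not called) were close to them or smaller in size, and those of Cox7a1 and Cpt1b were near 0. Otop1, at 0 or 1 counts in each ergothioneine library, had -5.13. No difference between these genes was tested.

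Genes outside the list, in lists also chosen with earlier results of these data known, gave a mixed picture. Of 36 other adipocyte genes, 31 were tested, and 2 were lower and 2 higher with ergothioneine, with a median log2 fold change of -0.01. Trarg1, a partner of GLUT4 trafficking in fat cells, fell to 1.27 ± 0.576 CPM with ergothioneine, against 3.05 ± 0.496 CPM untreated (edgeR log2 fold change -1.27 ± 0.30, adjusted p = 0.0139). Lpin1, a phosphatase of triglyceride synthesis, fell to 103 ± 5.58 CPM with ergothioneine, against 134 ± 21.2 CPM untreated (edgeR -0.38 ± 0.09, adjusted p = 0.0261). Aqp7, a glycerol channel of fat cells and of the proximal tubule, rose to 27.8 ± 0.831 CPM with ergothioneine, against 20.9 ± 1.94 CPM untreated (edgeR 0.41 ± 0.08, adjusted p = 0.0054). Acsl1, an acyl-CoA synthetase, rose to 315 ± 28.5 CPM with ergothioneine, against 245 ± 31.8 CPM untreated (edgeR 0.36 ± 0.09, adjusted p = 0.0267), but stood at -0.003 on deposited TPM, uncalled. Leaving out single libraries ended the calls of Trarg1 (without ergothioneine library 1 or untreated library 1 or 3, adjusted p up to 0.0621), of Lpin1 (without ergothioneine library 1, 2 or 4 or untreated library 1 or 3, up to 0.117) and of Acsl1 (without ergothioneine library 1 or untreated library 2 or 3, up to 0.124). Aqp7 passed with each library left out but not on deposited TPM (0.15 on the log2(TPM + 1) scale, limma adjusted p = 0.535), and with untreated library 3 alone Trarg1 was not called (adjusted p = 0.103). With single libraries left out the list held 1 to 5 calls, with 1 without ergothioneine library 1 or untreated library 3 and 2 without untreated library 1.

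Pparg, the master regulator of fat cell differentiation, had 1.09 ± 0.329 CPM with ergothioneine and 1.77 ± 0.266 CPM untreated and did not pass (edgeR -0.70 ± 0.29, adjusted p = 0.168). The lipases and acyltransferase of general triglyceride turnover did not pass either, with edgeR log2 fold changes of -0.11 ± 0.12 for Pnpla2 (adjusted p = 0.675), 0.00 ± 0.09 for Mgll (adjusted p = 0.995) and -0.22 ± 0.08 for Dgat2 (adjusted p = 0.132). Of the 5 untested genes of this list (Slc7a10, Mrap, Tnmd, Nnat and Orm1), none exceeded 15 counts in any library. Mrap had 3, 4, 0 and 3 counts with ergothioneine, against 8, 6 and 15 counts untreated. Nnat had 0, 0, 0 and 1 counts with ergothioneine, against 7, 2 and 3 counts untreated. In both every ergothioneine kidney lay below every untreated one, and in Slc7a10, Tnmd and Orm1 the groups overlapped.

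Of 36 other brown and beige fat genes, 26 were tested, 6 were lower and 2 higher, with a median log2 fold change of -0.16. Cox8b, the cytochrome c oxidase subunit of muscle and brown fat, had 0, 0, 0.0584 and 0.164 CPM with ergothioneine, against 1.70, 1.47 and 1.99 CPM untreated (edgeR -4.80 ± 0.56, adjusted p = 5.08e-05). Nat8l, which makes N-acetylaspartate in brown fat and neurons, had 0.227, 0.455, 0.0584 and 0.654 CPM with ergothioneine, against 2.15, 2.35 and 2.37 CPM untreated (edgeR -2.66 ± 0.40, adjusted p = 0.000519). Both were lower in every ergothioneine kidney than in any untreated one, and both passed with each library left out. Nat8l was already known from an earlier look at these data to differ. The list as a whole was also chosen with earlier results known, so none of its genes adds independent evidence. Pank1, a kinase of coenzyme A synthesis that the kidney expresses strongly, fell to 297 ± 11.6 CPM with ergothioneine, against 407 ± 36.8 CPM untreated (edgeR -0.46 ± 0.06, adjusted p = 0.000303), and also passed with each library left out.

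The other calls of this list were changes of under 0.4 on the log2 scale in genes that kidney expresses well. The glycerol kinase Gk fell to 868 ± 28.5 CPM with ergothioneine, against 1058 ± 36.3 CPM untreated (edgeR -0.28 ± 0.06, adjusted p = 0.00907). Acot11 (edgeR -0.38 ± 0.09, adjusted p = 0.0211), a thioesterase, and Slc27a2 (edgeR -0.29 ± 0.08, adjusted p = 0.0365), a fatty acid transporter, also fell. Sgk2 (edgeR 0.27 ± 0.07, adjusted p = 0.0222), a kinase, and Acsl5 (edgeR 0.24 ± 0.07, adjusted p = 0.0376), an acyl-CoA synthetase, rose, but on deposited TPM they stood at -0.10 and -0.12, uncalled. Gk passed with each single library left out but not on rescaled TPM (limma adjusted p = 0.151) or with untreated library 3 alone (adjusted p = 0.0729). The other 4 lost their calls without 4 or 5 of the 7 libraries, at adjusted p up to 0.186. The list held 5 calls without ergothioneine library 1, untreated library 1 or untreated library 3, and 4 without ergothioneine library 2 or with untreated library 3 alone. The regulators of brown fat identity were not among the calls, which in bulk kidney does not tell their level in fat cells. Ppargc1a had 148 ± 9.62 CPM with ergothioneine and 131 ± 13.5 CPM untreated (edgeR adjusted p = 0.154), Prdm16 had 36.5 ± 2.22 CPM with ergothioneine and 35.9 ± 3.01 CPM untreated (edgeR adjusted p = 0.918), and Ebf2 was too low to be tested.

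Of 19 other genes of fat synthesis, all tested, 3 were lower and 3 higher, with a median log2 fold change of 0.13. Srebf1, the transcription factor that drives fatty acid synthesis, rose to 51.7 ± 9.48 CPM with ergothioneine, against 32.1 ± 1.02 CPM untreated (edgeR 0.69 ± 0.13, adjusted p = 0.0139). Fads1, a fatty acid desaturase, rose to 129 ± 17.4 CPM with ergothioneine, against 80.3 ± 8.77 CPM untreated (edgeR 0.68 ± 0.12, adjusted p = 0.00824). On deposited TPM (log2(TPM + 1) scale) neither Srebf1 (0.246, limma adjusted p = 0.314) nor Fads1 (0.299, limma adjusted p = 0.24) was called. Srebf1 was not called on rescaled TPM either (0.61, limma adjusted p = 0.165). Pnpla3, a lipid droplet protein, fell to 0.922 ± 0.116 CPM with ergothioneine, against 1.85 ± 0.344 CPM untreated (edgeR -1.001 ± 0.28, adjusted p = 0.0365). Acss2 (-0.25 ± 0.06, adjusted p = 0.0169) and Me1 (-0.23 ± 0.07, adjusted p = 0.0459), which supply acetyl-CoA and NADPH, fell by edgeR, and the citrate carrier Slc25a1 rose (0.22 ± 0.06, adjusted p = 0.0365), though it stood at -0.13 on deposited TPM, uncalled. None of the 6 calls survived every library left out. The call of Fads1 ended without untreated library 2 (adjusted p = 0.0635), Srebf1 without any 1 of the 3 untreated libraries (up to 0.0897), Acss2 without ergothioneine library 1 or 2 or untreated library 3 (up to 0.0832), and Pnpla3, Me1 and Slc25a1 without 6 of the 7 libraries (up to 0.218). The list then held 2 calls without ergothioneine library 1 or 2, without untreated library 1 or 3 or with untreated library 3 alone, and 3 without untreated library 2.

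**Figure D4:**
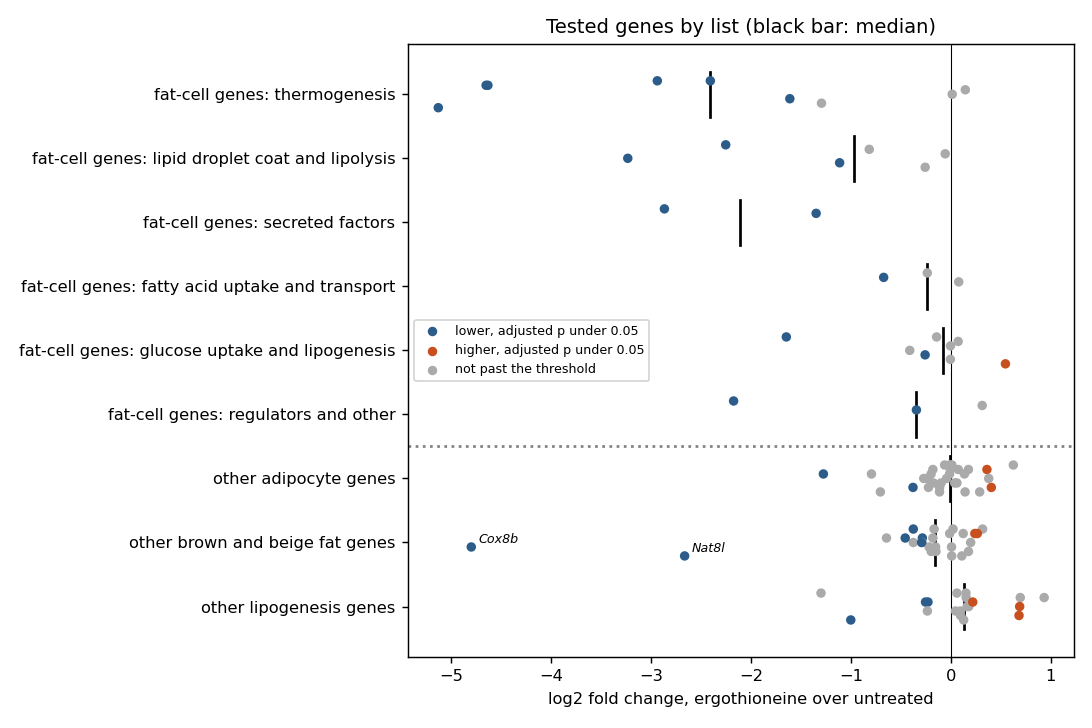
Log2 fold change (ergothioneine over untreated) of each tested gene by list, each point 1 gene, black bars for the medians, blue for genes called lower and orange for genes called higher by edgeR. Thermogenesis genes reach furthest below 0 of the fat-cell groups, with 6 of 9 called lower, and the other lists have medians of -0.01, -0.16 and 0.13, with Cox8b and Nat8l the lowest.

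Markers of other cell types that a piece of kidney could hold were followed in the same libraries, 106 genes of which 71 were tested. By edgeR 3 were lower and 6 higher. Summed levels ran from 514.7 to 547.2 CPM with ergothioneine and from 510 to 566.9 CPM untreated for 9 endothelial markers, and from 181.2 to 202.8 CPM with ergothioneine and from 147.2 to 188.5 CPM untreated for 9 fibroblast markers. They ran from 86.2 to 95.4 CPM with ergothioneine and from 85.3 to 90.5 CPM untreated for 7 macrophage markers, and from 119.3 to 140.8 CPM with ergothioneine and from 117.2 to 157.2 CPM untreated for 5 mesothelial markers. These sums overlapped between the groups, as did those of proximal tubule, urothelium, erythroid cells, adrenal cortex, and sympathetic neurons and chromaffin cells.

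Of the marker lists, 5 had sums that did not overlap between groups, and their part in the result was not tested. The 11 lymphoid markers summed to 9.53 to 10.0 CPM with ergothioneine and to 13.3 to 18.9 CPM untreated, and of them Jchain, the joining chain of plasma cell antibodies, fell to 3.23 ± 0.979 CPM with ergothioneine, against 9.28 ± 3.23 CPM untreated (edgeR -1.52 ± 0.27, adjusted p = 0.00626). Without Jchain the other 10 lymphoid markers summed to 5.51 to 7.74 CPM with ergothioneine and to 5.21 to 6.67 CPM untreated, which overlap. The 4 Schwann cell markers summed to 14.7 to 16.8 CPM with ergothioneine and to 16.8 to 18.6 CPM untreated. The 9 skeletal muscle markers summed to 0.273 to 0.681 CPM with ergothioneine and to 0.834 to 1.34 CPM untreated. Myh2, Myh4, Tnnt3 and Myl1 were at 0 in every library, so these sums came from the other genes of the list. Smooth muscle markers, 7 genes, summed to 63.0 to 72.0 CPM with ergothioneine and to 46.1 to 62.7 CPM untreated, and the 11 markers of other nephron segments to 5868 to 6678 CPM with ergothioneine and to 5278 to 5613 CPM untreated. Of the adrenal cortex list Cyp11b2 and Cyp21a1 were at 0 in every library, as were Th, Dbh, Pnmt and Chga of the sympathetic and chromaffin list.

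The calls among the markers were mostly small. Higher with ergothioneine were Slc4a1 (edgeR 0.59 ± 0.09, adjusted p = 0.00154), Slc26a4 (0.38 ± 0.08, adjusted p = 0.00474) and Atp6v0d2 (0.38 ± 0.09, adjusted p = 0.0189) of intercalated cells. Also higher were Slc12a1 of the thick ascending limb (edgeR 0.34 ± 0.08, adjusted p = 0.013; -0.03 on deposited TPM, uncalled) and Acta2 of smooth muscle (0.44 ± 0.11, adjusted p = 0.0163). Lower were Jchain, Acsm2 of the proximal tubule (edgeR -0.26 ± 0.07, adjusted p = 0.0455) and Gpihbp1 of capillary endothelium, which holds Lpl at the vessel wall (edgeR -0.55 ± 0.16, adjusted p = 0.0428). Jchain, Slc4a1 and Slc26a4 passed with each single library left out, but not with untreated library 3 alone (adjusted p = 0.072, 0.141 and 0.211), nor did Slc4a1 and Slc26a4 on deposited TPM (limma adjusted p = 0.212 and 0.967), whereas Acsm2 lost its call without 6 of the 7, Gpihbp1 without 5, Slc12a1 without 3, and Atp6v0d2 and Acta2 without 2. The count of marker calls was 4 without ergothioneine library 1 or 2, and 5 without untreated library 3 or with it alone. In the 9 lists with 0 calls, edgeR at an unadjusted p under 0.05 gave 1 gene lower and 1 higher of 32 tested, and DESeq2 gave 0.

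**Figure D5:**
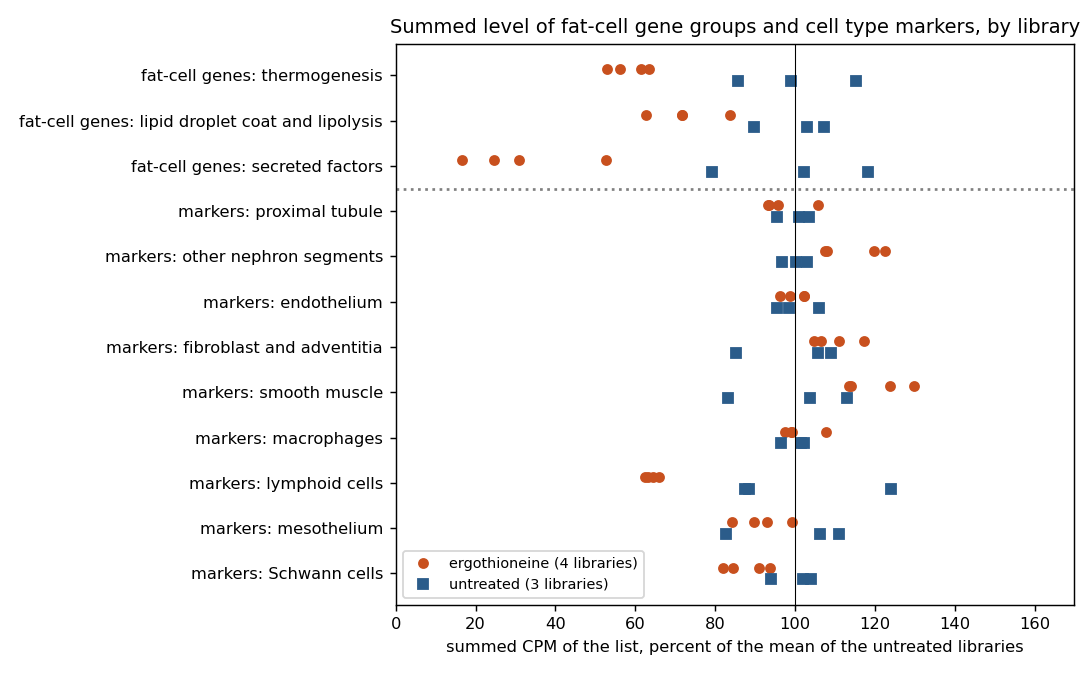
Summed CPM of gene lists in each library, as percent of the untreated mean, ergothioneine libraries above as circles (n = 4) and untreated libraries below as squares (n = 3). Sums of the thermogenesis genes separate (36.3 to 43.5 CPM with ergothioneine, 58.9 to 79.2 CPM untreated). Without Ucp1 (0 to 1.75 CPM with ergothioneine, 17.3 to 28.1 CPM untreated) the thermogenesis sums overlap. Sums of the secreted factors (0.852 to 2.68 CPM with ergothioneine, 4.04 to 6.03 CPM untreated) and of the lipid droplet genes separate as well. Of the marker lists, lymphoid cells (through Jchain) and Schwann cells also separate, lower with ergothioneine. Smooth muscle and other nephron segments separate too, higher with ergothioneine, and sums of endothelium and macrophages overlap.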

How the data were processed

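Kidney RNA of 7 male Slc7a9-/- mice (4 with ergothioneine, 3 untreated) was measured. Per the labels' protocols, total RNA of frozen kidney was depleted of ribosomal RNA and made into stranded libraries with 10 cycles of amplification. The tools included, per the submitters' processing notes, STAR 2.7.10a, RSEM 1.3.1, Salmon 1.10.1 and featureCounts (Subread 2.0.1), with the builds GRCm38 and mm10. What each did and the strand setting are not given in the labels. Expected counts were deposited by the authors, and 3.61% were not whole, so reads of similar genes were shared out. They also deposited TPM values, which divide by transcript length and sum to a fixed total in each library. Symbols came from GENCODE M21, which held 45143 of 45706 identifiers and all 233 list symbols.

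Expected counts were rounded and tested in edgeR 4.0.16 (R 4.3.3): filterByExpr, TMM scaling, robust quasi-likelihood F test, Benjamini-Hochberg adjustment over 15399 genes, threshold 0.05. CPM use TMM library sizes. Errors of CPM are SD over mice, and SE is the log2 fold change over the root of F, with a median of 0.11 at these depths. Libraries within a group differed by over 7.89 times sampling noise (chi-square per degree of freedom). The labels number the mice within groups but name no litter, cage or day, and the p-values measure the spread between these mice. The 36 genes, the other lists and the markers were chosen with earlier results of these data known. Values per library were given for the 3 lowest and the highest gene of each role and for every gene untested or not lower, and for further listed genes. In the other lists every called gene was named, up to 8 per list, or 4 per marker list. Some marker genes were kept in the counts and sums but are not reported by name here. Alternatives were DESeq2 1.42.0, median-of-ratios scaling, no filter, limma-trend 3.58.1 on log2 of TPM plus 1 or 0.1 and on TPM rescaled over protein-coding genes, each library left out, untreated library 3 alone, and blocks by replicate number and by index range.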

Additional observations from a re-analysis of the deposited data

Results flagged for a closer look

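In 3 of 63 genes checked, 1 of the 4 ergothioneine libraries stood apart from the other 3, by a gap whose share of the group's range exceeded Dixon's 95% critical value for 4 samples. Chance flags about 1 in 20 such groups. Elovl6 was low in ergothioneine library 3, with a gap of 0.914 of the range: 28.2 CPM there, against 34.5 to 35.1 CPM in the other ergothioneine libraries. Untreated library 3 was the low one of its group as well, at 29.9 CPM, and Elovl6 was not called. Gpihbp1 was high in ergothioneine library 3, with a gap of 0.98: 6.89 CPM, against 5.31 to 5.34 CPM in the others and 6.63 CPM in the lowest untreated library. Acot11 was high in ergothioneine library 4, with a gap of 0.857: 39.1 CPM, against 31.2 to 32.3 CPM in the others and 38.0 CPM in the lowest untreated library. These single libraries make the groups of Gpihbp1 and Acot11 overlap.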

How the results depend on the processing

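The 16 genes called lower numbered 16 by DESeq2 (13 shared with edgeR; Adrb3, Otop1 and Acvr1c had no adjusted p there), 11 on rescaled TPM and 10 with untreated library 3 alone. Deposited TPM moved the median of all tested genes by -0.31 (pseudocount 1) or -0.37 (0.1), and split its calls into 1484 lower and 54 higher, or 1424 and 53, against 550 and 552 in counts. There Acsl1 (-0.00347 and -0.003), Acsl5 (-0.122 and -0.127), Sgk2 (-0.103 and -0.104), Slc25a1 (-0.128 and -0.129) and Slc12a1 (-0.0342 with both) turned to lower, uncalled; the cause was not tested. Calls over all genes, 1102 in counts, were 276 on rescaled TPM and 556 with untreated library 3 alone. Other adipocyte genes had 7, 8 and 1 calls on TPM + 1, TPM + 0.1 and rescaled TPM. Other brown and beige fat genes had 3 on rescaled TPM and 4 with untreated library 3 alone; other lipogenesis genes 3 on TPM + 1, 2 on rescaled TPM and 2 with untreated library 3 alone; markers 3 on each of the 3 TPM scales and 5 with untreated library 3 alone. With each library left out in turn, calls ran from 692 to 1103 over all genes, 12 to 17 for fat-cell genes called lower, 1 to 5 for other adipocyte genes, 4 to 7 for other brown and beige fat genes, 2 to 8 for other lipogenesis genes and 4 to 8 for markers. Over all gene-level values under the alternatives, 780 kept their side of the threshold, 185 lost the call, 28 gained it and 10 reversed. A change of sign where neither fit called the gene was counted among the 780, not as a reversal. With single libraries left out, for example, the log2 fold change of Cpt1b ran from -0.0708 to 0.098 and that of Lpl from -0.104 to 0.186.

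Same-numbered libraries of the 2 groups did not deviate together (correlations 0.0548, -0.0972 and -0.00377). Such correlations over all genes cannot exclude that the numbers pair mice, and no label says that they do. A fit with the replicate number as a block gave 809 calls over all genes, 14 of the 36 genes lower (12 shared, without Ucp1, Gpd1, Cebpa and Acvr1c), and 5, 7, 5 and 8 calls in the other adipocyte, other brown and beige, other lipogenesis and marker lists. A block by index range gave 921 calls and 14 lower. Depth limits Zic1, Lep, Retn, Adig and Elovl3, with at most 16 counts in a library.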
